A study of Homo sapiens with 16 samples.

Results

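LRRC32 and 9 genes of the TGF-beta pathway were followed through the RNA of 2 acute myeloid leukaemia cell lines: the 10 genes are LRRC32, NRROS, TGFB1, FST, TGFBR1, TGFBR2, SMAD3, SMAD7, SKI and SKIL. They were taken by symbol from the 60603 genes of the authors' table of estimated counts. SKNO-1 is a myeloid line with the RUNX1-RUNX1T1 fusion that was grown with GM-CSF at 10 ng/mL, while U-937 cells resemble monocytes and have no such label. Cells of each line received DMSO as vehicle, all-trans retinoic acid (ATRA, the ligand of the retinoic acid receptors), Corin (an inhibitor of the CoREST complex that blocks its demethylase LSD1 and its deacetylases HDAC1 and HDAC2), or ATRA plus Corin. Each agent was used at 0.1 µM for 24 h, and every one of the 8 groups has 2 libraries of total RNA. Nothing in the labels says that 2 libraries of a group came from separate cultures, so p-values measure the spread between these libraries, which may be technical. Members were selected on measured values: LRRC32 was chosen by its SKNO-1 fold changes, among the largest rises with ATRA, with Corin and with both, and FST by one of the largest falls with ATRA there. Their SKNO-1 values, and their differences between the lines, are therefore given as a description with no test. The other 8 genes, and FST within U-937, were tested.

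TGF-beta is secreted in a latent form, held by its propeptide. LRRC32, also known as GARP, and its relative NRROS are membrane proteins that bind latent TGF-beta and present it at the cell surface, where integrins release it. LRRC32 is best known from regulatory T cells, platelets and endothelium, and NRROS from macrophages and microglia. TGFB1 encodes the main ligand of blood cells. TGFBR2 binds the active ligand and recruits TGFBR1, whose kinase phosphorylates SMAD3, which then enters the nucleus with SMAD4. SMAD7 blocks the receptor, and SKI and SKIL (SnoN) are corepressors that hold SMAD complexes inactive. SMAD7 and SKIL are themselves classic transcriptional targets of the pathway and so form its feedback. FST encodes follistatin, which traps activins, the relatives of TGF-beta.

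Library totals of the authors' estimated counts ran from 28.4 to 37.8 M. The fusion partner RUNX1T1 was at 92.0 to 148 CPM (counts per M of TMM-scaled library total) in SKNO-1, and HOXA9 and HOXA10 had 0 counts in all 8 SKNO-1 libraries, as against 38.4 to 70.7 and 74.8 to 91.2 CPM in U-937. The 2 SKNO-1 DMSO libraries stand apart from each other: across 9330 genes, their log2 difference followed GC content with a Pearson correlation of 0.796, and it was -0.422 for the ATRA pair. In U-937, over 9430 genes, it was 0.578 for the DMSO pair and 0.389 for the combination pair. Genes are not independent replicates, and every comparison with DMSO carries these differences. All 3 comparisons with DMSO within a line share the same 2 DMSO libraries.

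For the 3 tested genes that rose with ATRA plus Corin in both lines, SMAD7, SMAD3 and SKIL, sequence before one RefSeq start each is shown here so that it can be set beside their values. They come from RefSeq on GRCh38.p14, which has upstream windows of 250 bases for 8 of the 10 genes. The SMAD7 window is chr18:48950966-48951215 on the minus strand, and the SMAD3 window is chr15:67065352-67065601 on the plus strand. For SKIL, 28 bases around one match are shown, chr3:170357651-170357678 on the plus strand. The SMAD7 window lies before the whole annotated gene, while those of SMAD3 and SKIL lie inside the annotated gene span, before starts further in. Capitals mark a motif match.
SMAD7: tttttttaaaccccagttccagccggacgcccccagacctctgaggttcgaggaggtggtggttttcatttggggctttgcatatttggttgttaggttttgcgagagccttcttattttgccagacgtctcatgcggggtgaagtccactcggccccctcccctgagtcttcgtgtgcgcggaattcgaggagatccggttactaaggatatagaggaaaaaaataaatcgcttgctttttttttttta
SMAD3: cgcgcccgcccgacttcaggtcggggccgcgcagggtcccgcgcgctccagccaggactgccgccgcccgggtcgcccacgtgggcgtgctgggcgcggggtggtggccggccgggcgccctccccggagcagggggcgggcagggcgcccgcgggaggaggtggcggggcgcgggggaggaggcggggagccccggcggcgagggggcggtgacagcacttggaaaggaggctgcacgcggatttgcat
SKIL: gaggactcggTGACGTCAgagggctgtg
The windows were searched on both strands for 5 motifs. These were AGGTCA, the core read by retinoic acid receptors, in 12.1% of all 35116 windows; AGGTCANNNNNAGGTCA, which contains the former, in 0.00285%; CAGACA, a SMAD-binding box, in 13.6%; GTCTAGAC, the SMAD palindrome, in 0.182%; and TGACGTCA, the cAMP response element, in 1.65%. The last motif was added after the sequences had been seen. In the SMAD7 and SMAD3 windows printed here none of these letters occurred, but windows before other starts of both genes hold some. One such SMAD3 window has AGGTCA on the plus strand 211 to 206 bases before its start, AGGTCA on the other strand at 15 to 10 bases and CAGACA on the other strand at 134 to 129 bases. One such SMAD7 window has AGGTCA on the other strand 62 to 57 bases before its start. The capitals in SKIL are the cAMP response element, which reads the same on both strands and lies 54 to 47 bases before that start. GC content was 48.0% in the SMAD7 window, 80.8% in that of SMAD3 and 78.4% in the whole SKIL window. Gene-level counts do not show which start was used.

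With DMSO a receptor gene had the highest mean level in each line, TGFBR2 in SKNO-1 and TGFBR1 in U-937, and LRRC32 was silent in both. Levels of different genes are compared by the authors' TPM, transcript abundance divided by length and scaled to a fixed total. In SKNO-1 the mean TPM ran from TGFBR2 (27.5, libraries at 21.0 and 34.0), TGFBR1 (20.9) and NRROS (16.5) over SKIL (10.7), TGFB1 (7.83), FST (4.52) and SMAD3 (3.87) to SKI (2.23) and SMAD7 (1.23). The ranges of TGFBR2 and TGFBR1, of TGFBR1 and NRROS, of SKIL and TGFB1, and of FST and SMAD3 overlapped between neighbours in that order. In U-937 TGFBR1 led at 107 TPM (libraries at 96.2 and 119), followed by TGFB1 (23.3), SMAD3 (19.8), TGFBR2 (9.55), SKIL (5.56), NRROS (4.98), SMAD7 (3.92), SKI (3.33) and FST (0.39). There the ranges of TGFB1 and SMAD3, and of SKIL and NRROS, overlapped. LRRC32 was listed at 0 in all 4 DMSO libraries.

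The lines thus started from different pathway levels. In a fit of all 16 libraries, all 8 tested genes differed between U-937 and SKNO-1 with DMSO, where 64.8% of all tested genes did. U-937 had more TGFBR1 (log2 difference 2.14, SE 0.124, adjusted p = 1.94e-11), SMAD3 (1.96, SE 0.105), SMAD7 (1.15, SE 0.199), TGFB1 (1.05, SE 0.155) and SKI (0.36, SE 0.144, adjusted p = 0.0369). It had less NRROS (-1.96, SE 0.151, adjusted p = 1.07e-09), TGFBR2 (-1.83, SE 0.0925) and SKIL (-1.16, SE 0.314, adjusted p = 0.00932). The SKI call was lost without SKNO-1 DMSO replicate 1 (adjusted p = 0.0731), without U-937 DMSO replicate 1 (0.171) and with the GC trend removed (0.20, adjusted p = 0.409). The SKIL call was lost without SKNO-1 DMSO replicate 2 (-0.74, adjusted p = 0.11) and without U-937 DMSO replicate 1 (-0.93, adjusted p = 0.0751). FST, described only, lay at 8.79 and 8.90 CPM in SKNO-1 and at 0.501 and 1.09 CPM in U-937.

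LRRC32 (ENSG00000137507.11), on the minus strand of chromosome 11 between 76657524 and 76670747, went from silent to detectable with either agent in SKNO-1 and much higher with both. In SKNO-1 its estimated counts were 0 and 0 with DMSO, 41 and 67 with ATRA, 36 and 36 with Corin, and 628 and 708 with ATRA plus Corin. On the CPM scale these are 0 and 0, then 1.23 and 1.81, then 1.03 and 1.06, then 19.6 and 21.2. The DMSO libraries were below all treated ones, the ATRA and Corin libraries lay close together without overlapping, and the combination stood far above. Against a floor of 3 counts over both DMSO libraries, LRRC32 was at least 37.1-fold higher with ATRA, at least 25.2-fold with Corin and at least 494-fold with both. The combination was 13.3-fold above ATRA (95% counting interval 10.9 to 16.3) and 19.6-fold above Corin (15.5 to 25.2). These intervals and floors cover counting error only and leave out the spread between libraries. The reads carry no molecular identifiers, so even the counting error may not be fully covered. In RNA of whole cultures, fewer cells with a transcript and less of it per cell cannot be told apart.

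In U-937 LRRC32 showed the same order at a lower level, with Corin alone close to nothing. Its counts were 0 and 0 with DMSO, 4 and 15 with ATRA, 1 and 1 with Corin, and 60 and 70 with ATRA plus Corin. The combination libraries, at 1.78 and 2.40 CPM, were above the ATRA libraries at 0.110 and 0.455 CPM, and neither group overlapped any other. LRRC32 was at least 5.62-fold higher with ATRA and at least 42.3-fold higher with both than with DMSO, and Corin alone was at or under the floor. Set against ATRA, the combination was 7.53-fold higher (counting interval 4.63 to 12.9). The fitted log2 difference was 2.91, and it was 2.19 without ATRA replicate 1 and 4.24 without ATRA replicate 2. Set against Corin the combination was 70.5-fold higher (19.1 to 588). LRRC32 passed the filter on low counts in U-937 only through the combination group and had to differ there, so no test is given. Across the lines, the SKNO-1 ATRA libraries (1.26 and 1.86 CPM when all 16 libraries are scaled together) and the U-937 combination libraries (1.70 and 2.31) overlapped, and the SKNO-1 combination (19.9 and 21.7) was the highest group. The authors' TPM of LRRC32 with both agents was 5.20 and 5.08 in SKNO-1, next to SMAD7 at 4.56 and 6.33. RSEM's estimated length for LRRC32 differed between libraries, from 466.33 to 4107.33 bases, so its treatment groups are compared by counts and not by TPM.

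**Figure D1:**
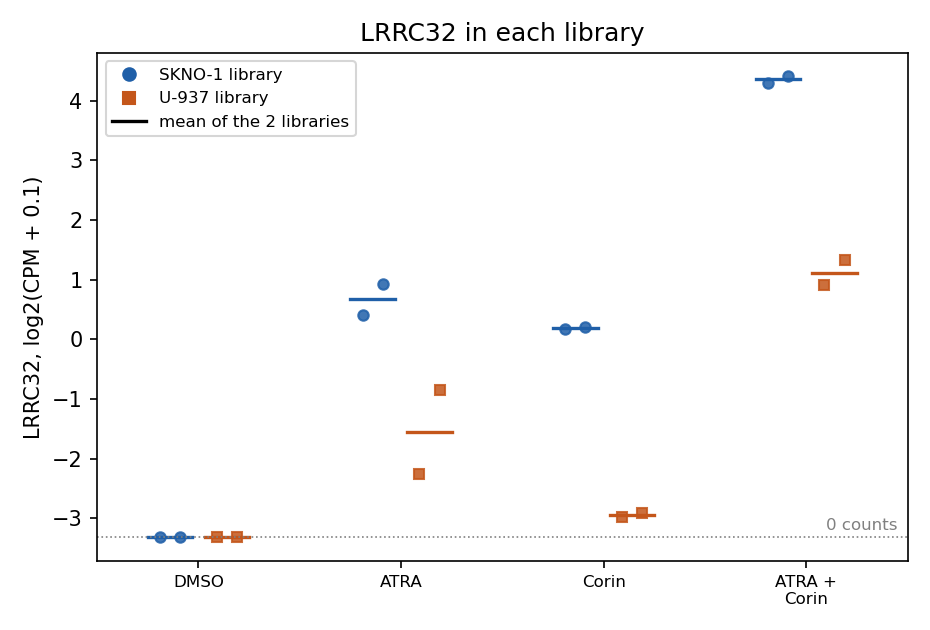
LRRC32 in each library, as log2(CPM + 0.1), by treatment and line; symbols are single libraries and bars the mean of 2. The DMSO libraries sit on the line of 0 counts, and the 2 SKNO-1 combination libraries, at 19.6 and 21.2 CPM, are the highest.

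How many of the 8 tested genes moved depended on the agent and on the line, and the counts have to be read against the share of all genes called. In SKNO-1, ATRA changed 1 of 8 (0 higher, 1 lower; 6.75% of all genes were called), Corin 5 of 8 (4 higher, 1 lower; 37.9%) and the combination 6 of 8 (5 higher, 1 lower; 46.7%). In U-937, ATRA changed 5 of 8 (3 higher, 2 lower; 41.8%), Corin 2 of 8 (both higher; 12.9%) and the combination 7 of 8 (4 higher, 3 lower; 65.3%). Adding Corin to ATRA changed 5 of 8 in SKNO-1 (5 higher; 44.8%) and 4 of 8 in U-937 (3 higher, 1 lower; 47.4%). Adding ATRA to Corin changed 5 of 8 in SKNO-1 (3 higher, 2 lower; 10.4%) and 7 of 8 in U-937 (4 higher, 3 lower; 60.5%). The median log2 change of the 8 genes with the combination was 0.65 in SKNO-1, where that of all genes was 0.05, and 0.68 in U-937, where it was 0.03. For ATRA in SKNO-1 the count was higher without either DMSO library and lower without any single one of the other 6 libraries. The number of all genes called moved in the same direction in those fits. The SKNO-1 count for Corin was lower without any 1 Corin, ATRA or combination library, and so was the number of all genes called. In SKNO-1, the count for ATRA added to Corin was lower without any 1 ATRA, Corin or combination library. The U-937 count for ATRA was lower without DMSO replicate 1, and that for Corin without either DMSO library or Corin replicate 2. With single libraries left out, the number of all genes called moved in these comparisons too.

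**Figure D2:**
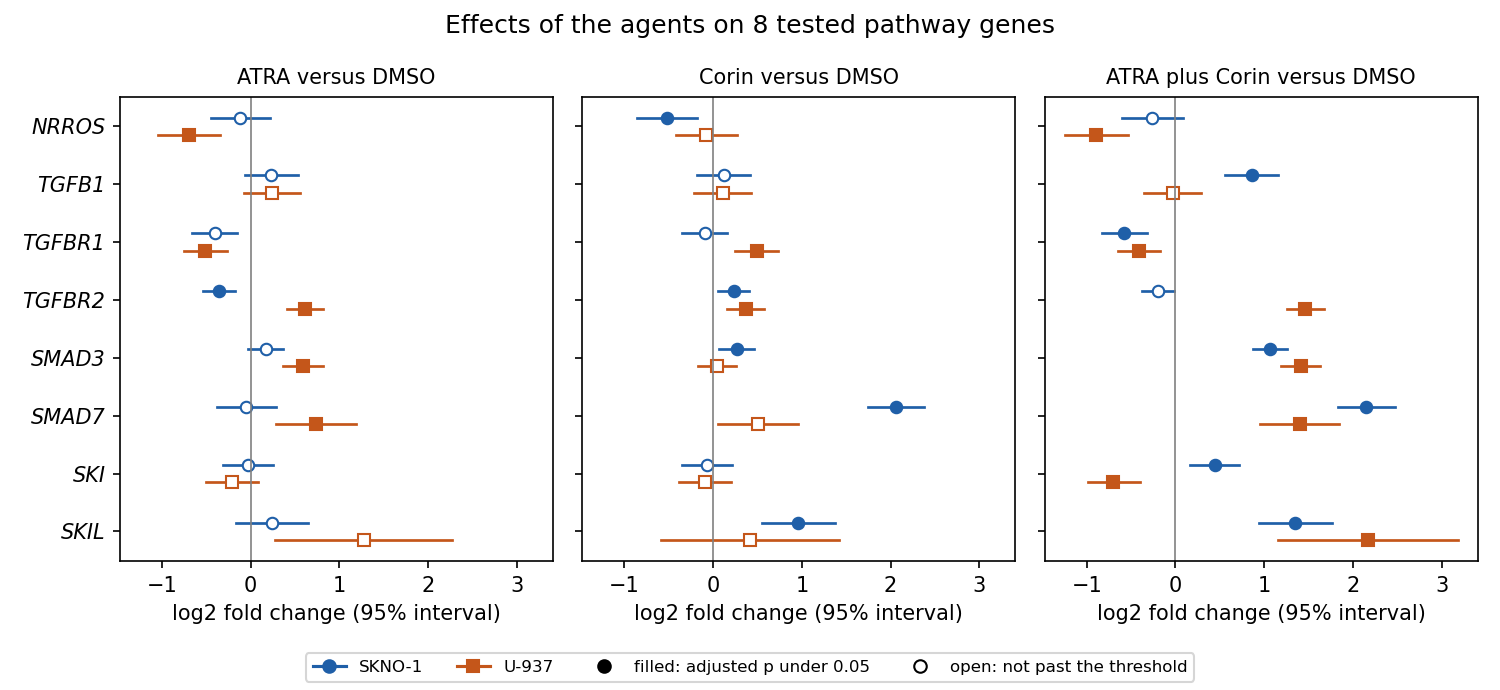
Log2 fold change of the 8 tested genes against DMSO with its 95% interval, by agent and line; filled symbols passed an adjusted p of 0.05. With the combination SMAD3, SMAD7 and SKIL lie to the right of 0 in both lines, while SKI lies on opposite sides.

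NRROS, the second anchor of latent TGF-beta (ENSG00000174004.6; chromosome 3, 196639694 to 196662004, plus strand), did not follow LRRC32. In U-937 it read 12.2 and 9.33 CPM with DMSO, 6.59 and 6.77 with ATRA, 9.95 and 10.5 with Corin, and 6.48 and 5.08 with both. The groups with ATRA were below those without it and did not overlap them. The fall with ATRA was 1.62-fold (log2 fold change -0.69, SE 0.170, adjusted p = 0.00195) and that with both 1.86-fold (-0.90, SE 0.173, adjusted p = 7.95e-05); the former was lost without DMSO replicate 1 (-0.48, adjusted p = 0.0695). In SKNO-1 the DMSO libraries were at 45.0 and 32.1 CPM, those with ATRA at 33.7 and 37.3, those with Corin at 26.6 and 27.1 and those with both at 31.6 and 32.7. Against DMSO only the change with Corin was called there (-0.52, SE 0.147, adjusted p = 0.0255). That call was lost without Corin replicate 1 (-0.51) or 2 (-0.54), and the change was -0.28 without DMSO replicate 1. The combination gave -0.26 in SKNO-1 (95% interval -0.60 to 0.08, adjusted p = 0.18). By the authors' TPM the Corin pair (11.75 and 13.29) and the combination pair (11.54 and 13.06) overlapped. Both pairs were below DMSO at 15.5 and 17.54 TPM.

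TGFB1, the ligand gene (ENSG00000105329.9; chromosome 19, 41301587 to 41353922, minus strand), rose in SKNO-1 with the combination. Its libraries read 10.3 and 8.45 CPM with DMSO, 10.3 and 11.6 with ATRA, 10.3 and 10.0 with Corin, and 17.0 and 16.9 with both. The combination pair was above all other SKNO-1 libraries, which lay between 8.45 and 11.6 CPM. Its rise over DMSO was 1.81-fold (log2 fold change 0.86, SE 0.127, adjusted p = 0.00107), and it was 1.54-fold over ATRA (adjusted p = 0.00476) and 1.67-fold over Corin (adjusted p = 0.0108). With the GC trend removed the rise over DMSO was 0.47 (adjusted p = 0.00529), and those over ATRA (0.29, adjusted p = 0.0547) and over Corin (0.24, adjusted p = 0.213) were lost. The rise over Corin was also lost without Corin replicate 1 (adjusted p = 0.108) or 2 (0.106) and without combination replicate 1 (0.0982) or 2 (0.10). In U-937 TGFB1 read 23.8 and 18.5 CPM with DMSO and 23.4 and 17.9 with both. The log2 fold change of -0.03 there has a 95% interval of -0.35 to 0.29. The authors' TPM differed from this, at 25.18 and 21.39 with DMSO and 17.24 and 10.69 with both in U-937. In SKNO-1 the combination TPM of 10.0 and 11.57 overlapped that with ATRA, 8.7 and 10.04.

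FST, the activin trap (ENSG00000134363.12), on the plus strand of chromosome 5 between 53480626 and 53487134, fell in SKNO-1 with ATRA by the way it was chosen. Its counts there were 304 and 338 with DMSO, 25 and 36 with ATRA, 367 and 381 with Corin, and 89 and 90 with both. The ATRA libraries were lowest, and with Corin added the level was higher than with ATRA alone but still below DMSO. The fitted change was 10.2-fold lower with ATRA and 3.23-fold lower with both, and the combination was 3.16-fold above ATRA alone, all as descriptions. In U-937 FST was low, at 0.501 and 1.09 CPM with DMSO, 0.745 and 1.06 with ATRA, 0.346 and 0.718 with Corin, and 1.12 and 0.618 with both. Each treated group overlapped DMSO there, and the Corin pair lay just below the ATRA pair. The log2 fold changes were 0.19 with ATRA (95% interval -0.74 to 1.13), -0.59 with Corin (-1.59 to 0.40) and 0.16 with both (-0.79 to 1.1). The intervals are not set against the SKNO-1 fall, because FST was chosen by it.

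In U-937 the receptor genes went in opposite directions with ATRA and with both agents, and both rose with Corin alone. TGFBR2 (ENSG00000163513.17; chromosome 3, 30606601 to 30694142, plus strand) read 44.8 and 42.7 CPM with DMSO, 68.5 and 65.0 with ATRA, 54.8 and 58.1 with Corin, and 116 and 126 with both. Each of the 4 groups stood clear of the next. TGFBR2 rose 1.53-fold with ATRA (log2 fold change 0.61, SE 0.0983, adjusted p = 2.18e-05), 1.29-fold with Corin (0.37, SE 0.0985, adjusted p = 0.0139) and 2.76-fold with both (1.46, SE 0.0989, adjusted p = 4.51e-12). The rise with Corin was lost without DMSO replicate 1 (adjusted p = 0.0613) or 2 (0.141) and without Corin replicate 2 (0.0804). TGFBR1 (ENSG00000106799.13; chromosome 9, 99104038 to 99154192, plus strand) read 491 and 614 CPM with DMSO, 389 and 387 with ATRA, 734 and 815 with Corin, and 398 and 433 with both. It fell 1.42-fold with ATRA (-0.51, SE 0.116, adjusted p = 0.000969), rose 1.40-fold with Corin (0.49, SE 0.115, adjusted p = 0.00515) and fell 1.33-fold with both (-0.41, SE 0.115, adjusted p = 0.00332). With ATRA present, Corin moved TGFBR1 by 0.10 (95% interval -0.14 to 0.34). The falls with ATRA and with both were lost without DMSO replicate 2 (adjusted p = 0.0643 and 0.131), and the rise with Corin without DMSO replicate 1 (0.33, adjusted p = 0.168).

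In SKNO-1 the receptor changes were small. TGFBR2 read 134 and 151 CPM with DMSO, 113 and 109 with ATRA, 168 and 169 with Corin, and 131 and 118 with both. The ATRA pair was below and the Corin pair above DMSO, while the combination overlapped neither but lay just under DMSO. The fall with ATRA was 1.28-fold (-0.36, SE 0.0773, adjusted p = 0.0306) and the rise with Corin 1.18-fold (0.24, SE 0.0769, adjusted p = 0.0426), and with both the change was -0.20 (95% interval -0.38 to -0.02; adjusted p = 0.0667). Both calls ended when any 1 of several libraries was left out. For ATRA these were the ATRA libraries (adjusted p = 0.12 and 0.167), the Corin libraries (0.0869 and 0.0868) and the combination libraries (0.0551 and 0.0545). For Corin they were the ATRA libraries (0.102 and 0.101), the Corin libraries (0.155 and 0.177) and the combination libraries (0.0613 and 0.0605), and the rise was 0.13 without DMSO replicate 1. Against Corin alone the combination lowered TGFBR2 by 1.35-fold (-0.44, SE 0.0772, adjusted p = 0.0123), a call lost without either Corin library (0.109 and 0.101) or either combination library (0.0516 and 0.139) and reduced to -0.27 with the GC trend removed. TGFBR1 read 100 and 130 CPM with DMSO, 87.3 and 86.6 with ATRA, 108 and 108 with Corin, and 74.6 and 79.6 with both. It fell 1.49-fold with both (-0.58, SE 0.111, adjusted p = 0.00374), or -0.36 with the GC trend removed, and the change with ATRA was -0.40 (95% interval -0.66 to -0.15; adjusted p = 0.0802). Against Corin alone TGFBR1 was 1.40-fold lower with both (-0.48, adjusted p = 0.0336), or -0.25 with the GC trend removed. That call was lost without any 1 of the ATRA (0.0862 and 0.0857), Corin (0.208 and 0.169) or combination (0.209 and 0.163) libraries.

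SMAD3, the receptor-activated transducer (ENSG00000166949.16; chromosome 15, 67063763 to 67195173, plus strand), rose with the combination in both lines. In U-937 it read 96.2 and 92.7 CPM with DMSO, 146 and 138 with ATRA, 87.6 and 107 with Corin, and 265 and 238 with both. DMSO and Corin overlapped, ATRA was above them and the combination above ATRA. The rise was 1.51-fold with ATRA (log2 fold change 0.59, SE 0.105, adjusted p = 7.32e-05) and 2.66-fold with both (1.41, SE 0.107, adjusted p = 3.27e-11). In SKNO-1 it read 20.8 and 23.5 CPM with DMSO, 25.1 and 24.8 with ATRA, 26.0 and 27.4 with Corin, and 46.4 and 46.5 with both. The combination rose 2.09-fold over DMSO (1.07, SE 0.0856, adjusted p = 5.48e-05), 1.86-fold over ATRA and 1.74-fold over Corin (adjusted p = 0.000141 and 0.00107). Corin alone gave 0.27 (SE 0.0858, adjusted p = 0.0414), a call lost under 13 of 15 alternatives. Among them were DMSO replicate 1 left out (0.16, adjusted p = 0.102), either ATRA library (0.107 and 0.106), either Corin library (0.109 and 0.217) and either combination library (0.0896 and 0.0892).

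SMAD7, the inhibitory SMAD (ENSG00000101665.9; chromosome 18, 48919853 to 48950965, minus strand), was the tested gene with the largest rise in SKNO-1, and there Corin alone reached the level of the combination. It read 3.88 and 3.79 CPM with DMSO, 3.30 and 4.11 with ATRA, 16.1 and 16 with Corin, and 16 and 17.9 with both. The Corin and combination libraries lay close together and above all DMSO and ATRA libraries, which overlapped. SMAD7 rose 4.18-fold with Corin (log2 fold change 2.06, SE 0.138, adjusted p = 3.62e-05) and 4.43-fold with both (2.15, SE 0.139, adjusted p = 2.02e-05). Adding ATRA to Corin moved it by 0.08 (95% interval -0.21 to 0.38). In U-937 it read 8.42 and 10.1 CPM with DMSO, 12.5 and 18.5 with ATRA, 12.1 and 14.3 with Corin, and 21.0 and 28.0 with both. There the DMSO pair was lowest, the single agents overlapped and the combination was highest. SMAD7 rose 2.64-fold with both (1.40, SE 0.203, adjusted p = 6.7e-05), and it was 1.58-fold above ATRA (0.66, adjusted p = 0.0145) and 1.85-fold above Corin (0.89, adjusted p = 0.00195). ATRA alone gave 1.67-fold (0.74, SE 0.205, adjusted p = 0.0126), lost without DMSO replicate 1 (0.60, adjusted p = 0.113), without ATRA replicate 2 (0.41, adjusted p = 0.0949) and with the GC trend removed (0.62, adjusted p = 0.0686). The step from ATRA to both was lost without ATRA replicate 1 (0.40, adjusted p = 0.0878) or combination replicate 2 (0.44, adjusted p = 0.0615). Corin alone gave 0.51 in U-937 (95% interval 0.06 to 0.96; adjusted p = 0.141).

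SKIL, the corepressor whose start is shown above (ENSG00000136603.14; chromosome 3, 170357342 to 170396835, plus strand), rose with the combination in both lines. In SKNO-1 it read 36.7 and 58.6 CPM with DMSO, 56.8 and 56.3 with ATRA, 91.9 and 93.3 with Corin, and 123 and 119 with both. DMSO and ATRA overlapped, Corin was above them and the combination higher again. SKIL rose 1.94-fold with Corin (log2 fold change 0.96, SE 0.177, adjusted p = 0.00417) and 2.55-fold with both (1.35, SE 0.178, adjusted p = 0.000608), and the step from Corin to both was 0.39 (95% interval -0.01 to 0.79; adjusted p = 0.173). In U-937 the libraries were wide apart at 20.3 and 26.6 CPM with DMSO, 40.1 and 73.5 with ATRA, 27.1 and 35.6 with Corin, and 95.7 and 115 with both. The combination was above every other library. SKIL rose 4.49-fold with both (2.17, SE 0.376, adjusted p = 0.00639) and 3.37-fold against Corin (1.75, SE 0.367, adjusted p = 0.0136), the latter lost without either Corin library (adjusted p = 0.0857 and 0.0543) or combination replicate 2 (0.0694). ATRA alone gave 1.28 (95% interval 0.28 to 2.27; adjusted p = 0.0541), Corin alone 0.42 (-0.59 to 1.42), and the step from ATRA to both was 0.89 (-0.06 to 1.85).

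SKI, the other corepressor (ENSG00000157933.10; chromosome 1, 2227388 to 2310213, plus strand), fell in U-937 with the combination, unlike SKIL. It read 19.6 and 17.1 CPM with DMSO, 15.2 and 16.6 with ATRA, 14.6 and 20.0 with Corin, and 11.3 and 11.4 with both. The combination pair was below all others. The fall was 1.62-fold (log2 fold change -0.70, SE 0.144, adjusted p = 0.00018). Against ATRA it was 1.40-fold (-0.48, adjusted p = 0.00746), lost without ATRA replicate 2 (-0.42, adjusted p = 0.0648), and against Corin 1.52-fold (-0.60, adjusted p = 0.000857), or -0.37 without Corin replicate 2. In SKNO-1 it read 12.5 and 13.8 CPM with DMSO, 14 and 11.8 with ATRA, 12 and 12.9 with Corin, and 18.3 and 17.3 with both. That pair was above all others, with a rise of 1.36-fold over DMSO (0.44, SE 0.120, adjusted p = 0.0181), 1.38-fold over ATRA (0.47, adjusted p = 0.0145) and 1.43-fold over Corin (0.51, adjusted p = 0.0358). With the GC trend removed none of these passed (0.08, 0.18 and 0.10, adjusted p = 0.766, 0.517 and 0.798). They were also lost without combination replicate 1 (adjusted p = 0.112, 0.0972 and 0.211) or 2 (0.0671, 0.0583 and 0.176). The rise over ATRA was further lost without ATRA replicate 2 (0.0964), and that over Corin without either ATRA (0.0596 and 0.0592) or either Corin library (0.259 and 0.153).

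**Figure D3:**
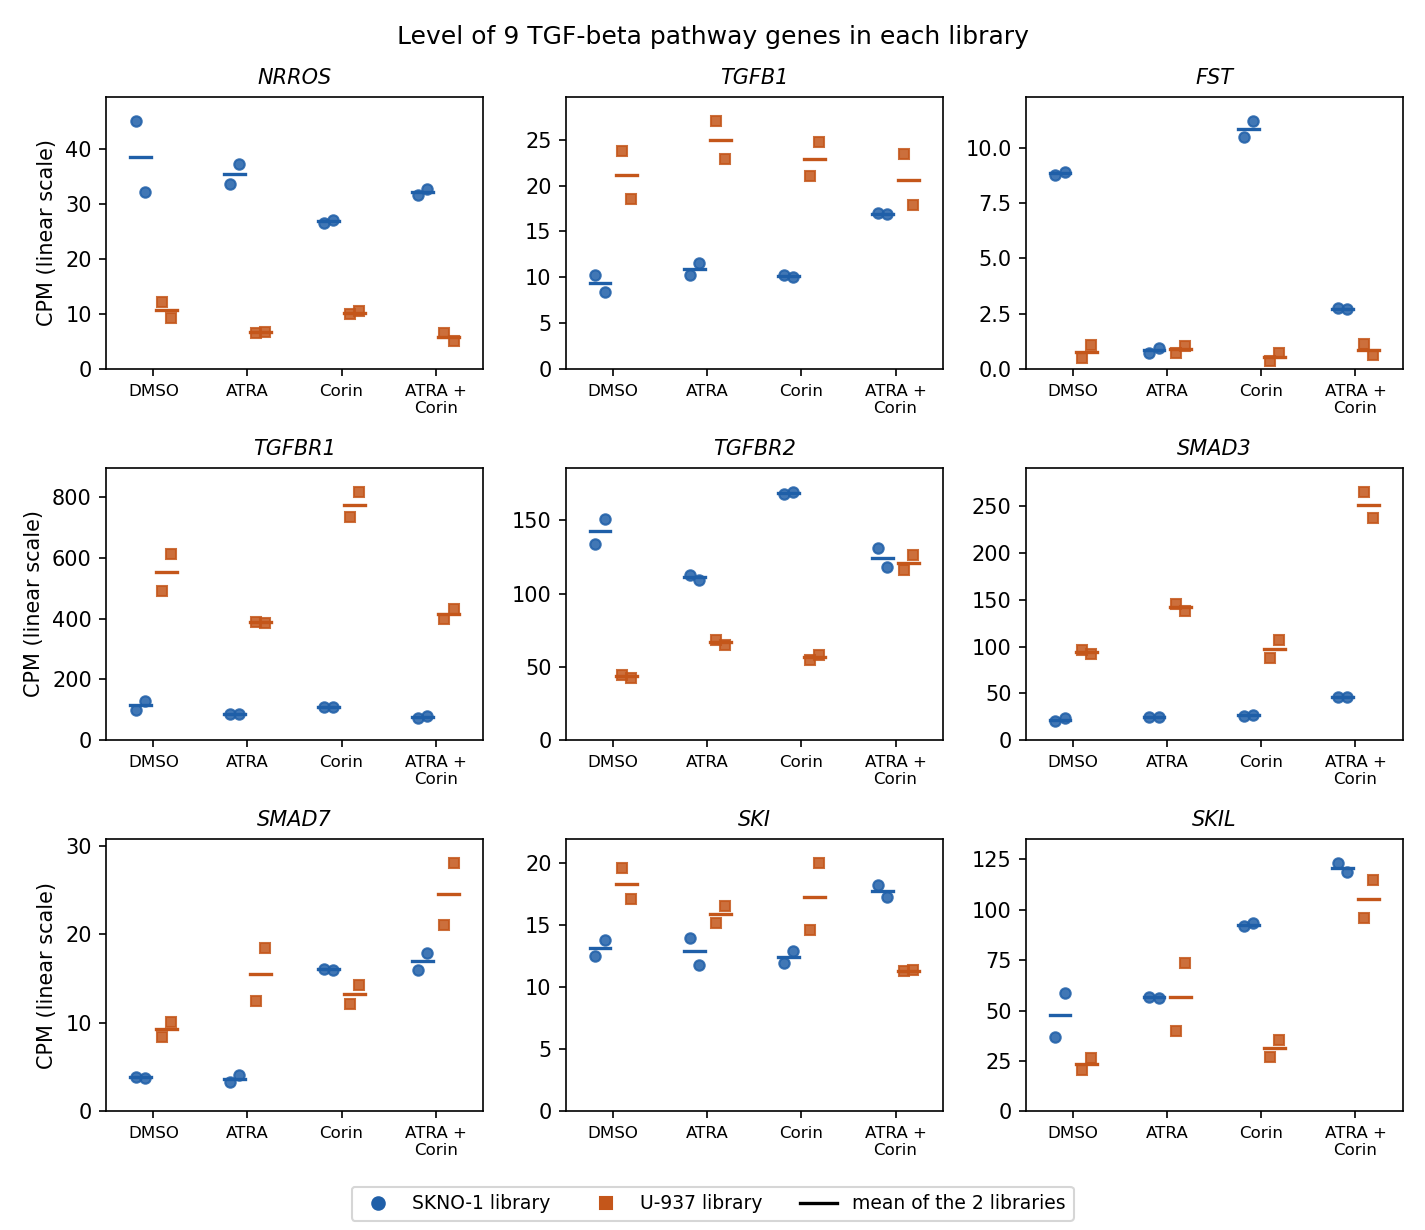
CPM of 9 genes in each library on linear axes from 0, by treatment and line, scaled within each line; symbols are libraries and bars means of 2. SKIL and SMAD3 are highest with the combination in both lines, and FST in SKNO-1 drops from 8.79 and 8.90 CPM to 0.750 and 0.973 with ATRA.

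Whether the agents together did more than the sum of their single log2 effects was tested for the 8 genes. In U-937, 2 of 8 departed from the sum, both upward (23.4% of all genes departed): SMAD3 by 0.78 (SE 0.148, adjusted p = 0.000343) and TGFBR2 by 0.49 (SE 0.138, adjusted p = 0.0108). The TGFBR2 call was lost without DMSO replicate 1 (adjusted p = 0.0531) or ATRA replicate 2 (0.0795). For SMAD7 in U-937 the departure was 0.15 (95% interval -0.47 to 0.77), and for TGFBR1 it was -0.39 (-0.73 to -0.05; adjusted p = 0.0894). In SKNO-1, edgeR's quasi-likelihood test called 0 of 8 (0.463% of all genes), while 3 of 8 had an unadjusted p under 0.05 and DESeq2 called 1. SMAD3 came closest there, with 0.63 (SE 0.121, adjusted p = 0.0826). The SKNO-1 count was higher without either DMSO library, with SMAD3 at 0.77 without DMSO replicate 1 and 0.59 without DMSO replicate 2. The number of all genes called also ranged widely with single libraries left out, so the higher count is not particular to these genes. For LRRC32 a departure from the sum has no meaning, since its DMSO level was 0.

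**Figure D4:**
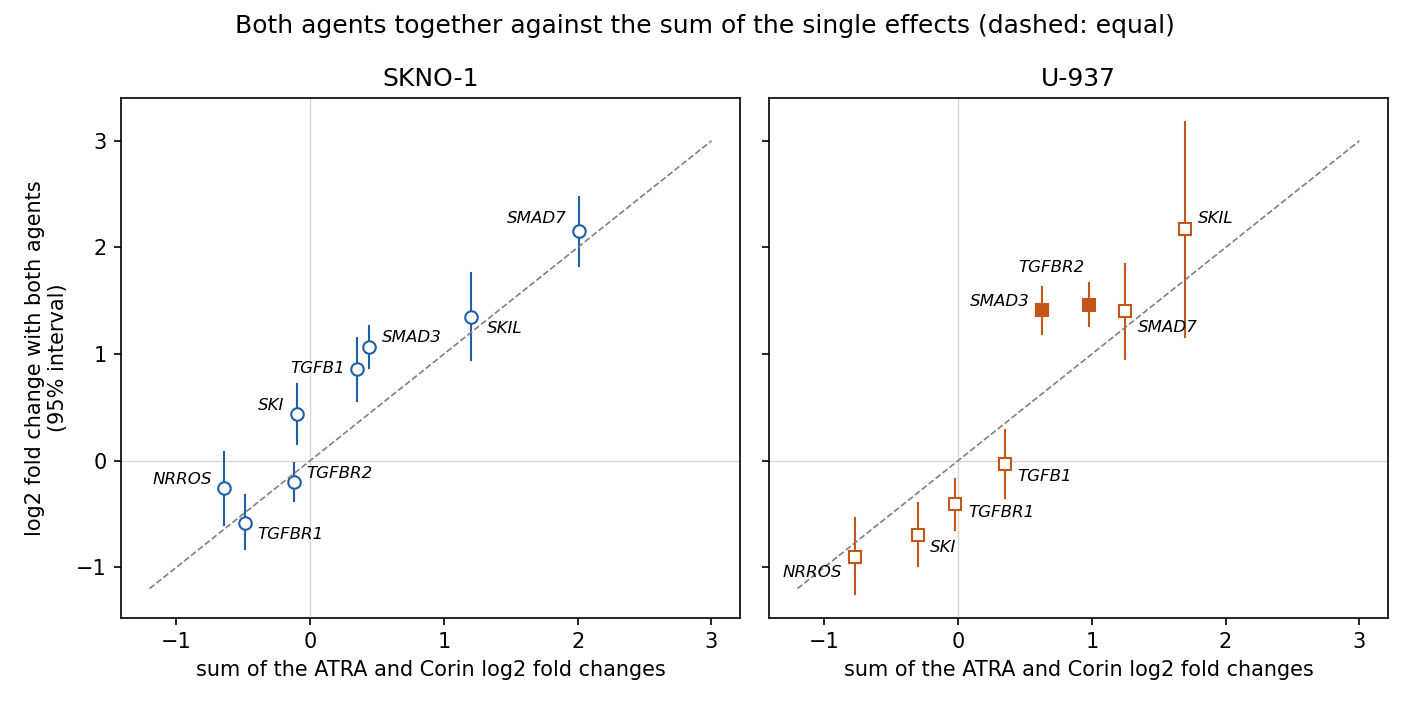
Log2 fold change with both agents (95% interval) against the sum of the 2 single log2 fold changes for the 8 tested genes; the dashed line marks equality and filled symbols departed from it. In U-937 SMAD3 and TGFBR2 lie above the line by 0.78 and 0.49.

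The effects themselves were then compared between the lines. The ATRA effect differed for 3 of 8 genes (19.4% of all genes), all more positive in U-937: TGFBR2 by 1.01 (SE 0.127, adjusted p = 1.17e-05), SMAD7 by 0.82 (SE 0.278, adjusted p = 0.0452) and SMAD3 by 0.46 (SE 0.144, adjusted p = 0.0288). TGFBR2 was lower with ATRA in SKNO-1 and higher in U-937. The Corin effect differed for 2 of 8 (12.8%): SMAD7 was less raised in U-937, by -1.55 (SE 0.267, adjusted p = 0.000647), and TGFBR1 more so, by 0.59 (SE 0.169, adjusted p = 0.0284). The effect of both agents differed for 6 of 8 (40.6%). It was more positive in U-937 for TGFBR2 (1.71, SE 0.127, adjusted p = 3.16e-09) and SMAD3 (0.39, SE 0.143, adjusted p = 0.0345). It was more negative there for SKI (-1.09, SE 0.205, adjusted p = 0.000263), TGFB1 (-0.85, SE 0.216, adjusted p = 0.00372), SMAD7 (-0.70, SE 0.265, adjusted p = 0.0409) and NRROS (-0.60, SE 0.216, adjusted p = 0.0342). For SKIL the difference was 0.87 with a 95% interval of -0.11 to 1.84. Of these 11 differences, 5 kept their call under every alternative run, namely TGFBR2 with ATRA and with both, SMAD7 with Corin, and TGFB1 and SKI with both. The lines differ in their medium as well as in origin, and these cannot be told apart.

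A further 108 genes of the TGF-beta family were put in 6 lists, none holding the 10 genes above. In SKNO-1 with both agents 31 of 77 tested list genes were higher and 18 lower, in all 63.6% where 46.7% of all genes were called, and in U-937 37 of 78 were higher and 24 lower, 78.2% where 65.3% of all genes were called. Counts of each list below with both agents stand beside the same 46.7% and 65.3%, and no list was tested against other genes. The median log2 change over all lists was 0.10 in SKNO-1, against 0.05 over all genes, and 0.25 in U-937, against 0.03. Among receptors and co-receptors in SKNO-1, 8 of 10 (80%, all genes 46.7%) rose with both and 0 fell, with a list median of 0.92. ACVRL1, a type I receptor for BMP9 and BMP10, had 34 counts over the DMSO libraries, 27 with ATRA, 601 with Corin and 557 with both (log2 fold change with both 4.18, SE 0.202, adjusted p = 5.11e-06). ENG, its co-receptor endoglin, went from 12.6 and 10.9 CPM with DMSO to 36.2 and 32.9 with both (1.56, SE 0.106). In U-937, 6 of 10 receptors rose and 3 fell (90%, all genes 65.3%). ACVRL1 rose there from 1.6 and 1.59 CPM to 17.6 and 16.8 (3.43, SE 0.183, adjusted p = 5.22e-14), and ATRA alone brought it to 10.9 and 11.3.

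Of the ligands and their antagonists, 5 of 10 rose with both and 4 fell in SKNO-1 (90%, all genes 46.7%; median 1.01), and 1 of 12 rose and 9 fell in U-937 (83.3%, all genes 65.3%; median -1.78). The effect itself differed between the lines for 6 of 15 (40.0%, all genes 40.6%), more negative in U-937 in all 6. FSTL3, a follistatin-like antagonist, rose in SKNO-1 from 0.723 and 0.606 CPM to 3.58 and 3.51 (2.42, SE 0.225), and BMP6 was at 5.15 and 5.06 with DMSO, 2.94 and 2.76 with ATRA, 19.3 and 18.4 with Corin and 12.7 and 12.7 with both. In U-937 the BMP ligand gene BMP8B fell from 8.33 and 7.97 CPM to 0.947 and 0.825 (-3.20, SE 0.220), and GDF11, an activin-like ligand, from 12.6 and 13.6 to 5.15 and 5.46 (-1.30, SE 0.151). Of the called genes there with a mean of at least 1 CPM, only BMP8B fell by more than the list median of -1.78. The next were GDF11 and BMP1 (-1.04, SE 0.135), so that median rests largely on genes under 1 CPM or not called.

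Among genes that store and activate latent TGF-beta, 7 of 13 rose and 5 fell in SKNO-1 (92.3%, all genes 46.7%; median 0.37) and 9 of 15 rose and 2 fell in U-937 (73.3%, all genes 65.3%; median 0.69). THBS1, which encodes the latent TGF-beta activator thrombospondin-1, was at 2.26 and 2.45 CPM with DMSO in SKNO-1, 110 and 117 with ATRA, 5.61 and 5.55 with Corin and 93.0 and 88.7 with both. Its log2 fold change with both was 5.27 (SE 0.0885, adjusted p = 5.72e-08) in SKNO-1 and 4.41 (SE 0.189, adjusted p = 9.79e-16) in U-937, where it went from 1.28 and 1.09 to 24.6 and 25.9 CPM. LTBP1, a matrix protein that binds latent TGF-beta, went opposite ways, from 1.76 and 2.00 to 0.561 and 0.510 CPM in SKNO-1 (-1.82, SE 0.242) and from 15.2 and 15.5 to 36.4 and 43.2 CPM in U-937 (1.37, SE 0.114).

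Of the transcriptional targets of the family, 8 of 15 were higher and 0 lower in SKNO-1 (53.3%, all genes 46.7%; median 1.05), and 9 of 13 were higher and 1 lower in U-937 (76.9%, all genes 65.3%; median 1.45). ID1, a target of the BMP branch, went from 5.49 and 3.98 to 24.2 and 26.6 CPM in SKNO-1 (2.43, SE 0.168) and from 0.564 and 0.679 to 16.6 and 22.7 CPM in U-937 (4.98, SE 0.272). In U-937 CDKN1A, the p21 cell cycle inhibitor, went from 2.50 and 2.82 to 59.7 and 66.7 CPM (4.57, SE 0.165). Of the SMADs other than SMAD3 and SMAD7, 1 of 6 rose and 2 fell in SKNO-1 (50.0%, all genes 46.7%). SMAD9 rose (0.74, SE 0.174), and SMAD1 (-0.68, SE 0.107) and SMAD4 (-0.29, SE 0.0946, adjusted p = 0.0342) fell. SMAD9 was at 2.54 and 3.58 CPM with DMSO, 11.1 and 11.2 with Corin, and 5.17 and 5.10 with both. SMAD4 read 92.7 and 113 CPM with DMSO and 87.4 and 80.6 with both. In U-937 1 of 4 rose, SMAD2 (0.51, SE 0.0983), and SMAD5 (-0.52, SE 0.105) and SMAD6 (-0.44, SE 0.147) fell (75.0%, all genes 65.3%). Of the regulators of SMADs and receptors, 2 of 23 were higher and 7 lower in SKNO-1 (39.1%, all genes 46.7%; median -0.13), and 11 of 24 were higher and 7 lower in U-937 (75.0%, all genes 65.3%; median 0.17). NEDD4L, a ubiquitin ligase for activated SMADs, rose in SKNO-1 (3.28, SE 0.245). The corepressor TGIF2 fell in SKNO-1 (-0.53, SE 0.0819) and in U-937 (-1.31, SE 0.103). In U-937 PMEPA1 also fell (-1.54, SE 0.298), while TGIF1 rose (1.40, SE 0.111).

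**Figure D5:**
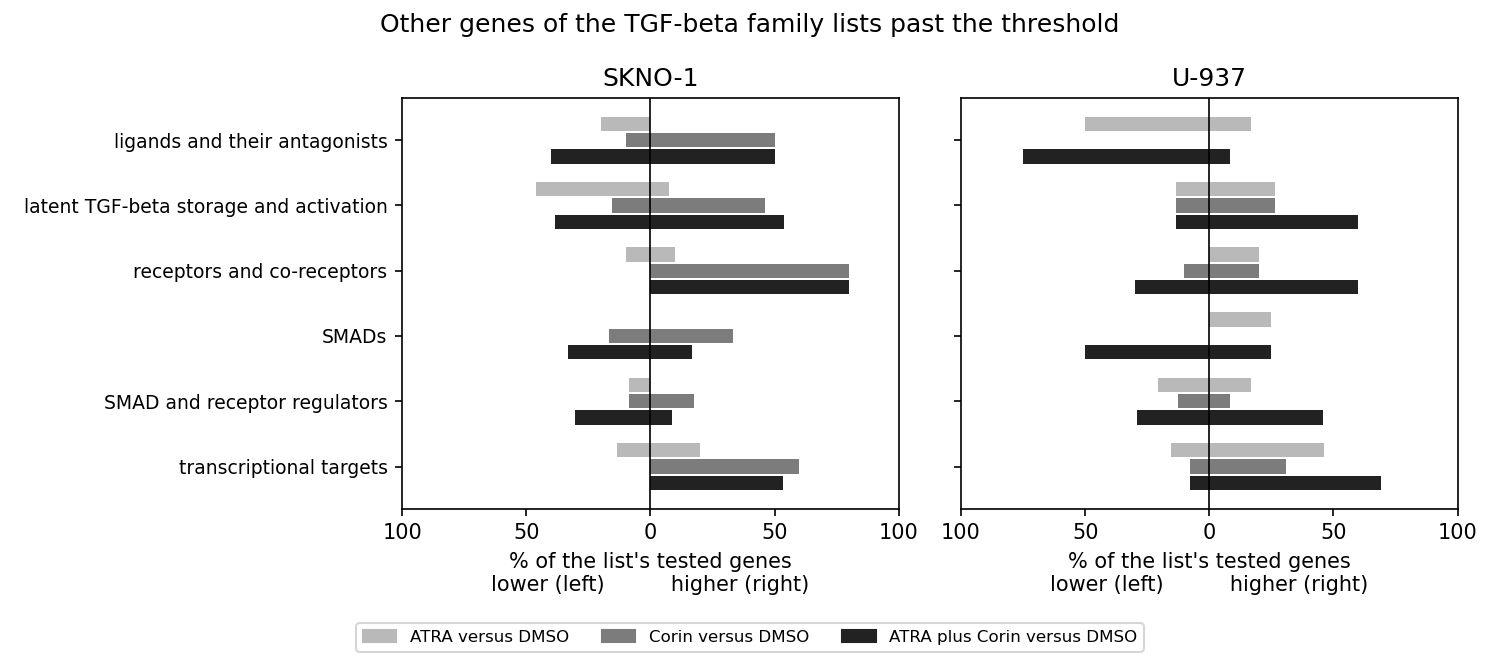
Share of the tested genes of 6 TGF-beta family lists past an adjusted p of 0.05, lower to the left of 0 and higher to the right, by agent and line. In U-937 with both agents 9 of 12 ligands and antagonists are lower, some of them under a mean of 1 CPM. In SKNO-1 with both agents 8 of 10 receptors are higher. Of all genes, 65.3% were called in U-937 with both agents and 46.7% in SKNO-1.

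The genes whose pattern was most like that of LRRC32 over the 16 libraries were AIG1 (Pearson correlation 0.974 of log2(CPM + 0.1)), PMP22 (0.959), ADAMTS14 (0.931), ARAP3 (0.925) and LINC01091 (0.915), out of 12953 genes whose mean reached 1 CPM. AIG1 had 20.7 and 23.0 CPM with DMSO and 46.0 and 46.1 with both in SKNO-1, and 21.7 and 23.6 against 33.1 and 38.7 in U-937, so likeness in shape does not mean likeness in size. ADAMTS14, a secreted protease, went from 2.31 and 1.63 to 136 and 145 CPM in SKNO-1 and from 2.54 and 1.66 to 14.9 and 11.8 in U-937. Of the other 9 genes followed here, SKIL was the most like LRRC32 (0.847, rank 41). The points share libraries, lines and treatments. With a pseudocount of 1 CPM, or without the minimum level, 3 of the 5 stayed among the top 5.

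The genes on each side of LRRC32 were read as a description. LRRC32 was chosen for its large SKNO-1 rises, so smaller changes of its neighbours there follow from that choice. The rule of 3 neighbours on each side was set after the data were seen. THAP12, GVQW3 and EMSY on one side and TSKU and ACER3 on the other had log2 fold changes with both agents between -0.19 and 0.46 in SKNO-1, and B3GNT6 had 2 counts over that group. In U-937 ACER3, a ceramidase gene, rose by 1.23 (adjusted p = 2.71e-10), while TSKU, which encodes the secreted protein tsukushi, fell by 1.49 on the log2 scale (adjusted p = 9e-07). GVQW3 (-1.21, adjusted p = 1.6e-07), EMSY (-0.68, adjusted p = 6.57e-06) and THAP12 (-0.59, adjusted p = 1.67e-05) fell there too. Among the neighbours of FST, ITGA1, which encodes an integrin subunit, rose with both agents by 4.82 in SKNO-1 (adjusted p = 0.000132) and by 5.12 in U-937 (adjusted p = 2.36e-15). Its counts over a group went from only 6 with DMSO to 152 with both in SKNO-1, and from 37 to 1317 in U-937. NDUFS4, a respiratory complex gene, changed by -0.61 in SKNO-1 and -0.67 in U-937 (adjusted p = 0.000392 and 1.79e-05).

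Markers of the cell types that LRRC32 is known from were read in the same libraries. Of 6 regulatory T cell markers, CTLA4 and CD3E had 0 counts in all 8 SKNO-1 libraries, FOXP3 at most 3 and CD3D at most 4, while IL2RA (23.0 to 109 CPM) and IKZF2 (39.7 to 182 CPM) were present. Their summed level in SKNO-1 was 86.7 to 110 CPM with DMSO, 97.0 to 101 with ATRA, 206 to 212 with Corin and 157 to 160 with both. In U-937 the sum was at most 0.106 CPM in any library. Of 5 platelet markers in SKNO-1, PF4 and GP9 had 0 counts throughout, and ITGA2B made up nearly all of a sum of 7.11 to 12.3 CPM with DMSO, 4.2 to 4.46 with ATRA, 35.6 to 36.0 with Corin and 32.2 to 33.3 with both. The 4 endothelial markers summed to at most 0.930 CPM in SKNO-1 and 1.95 in U-937. The 8 myeloid markers summed to 2230 to 4070 CPM in SKNO-1 and, in U-937, to 444 to 463 with DMSO, 656 to 683 with ATRA, 2220 to 2640 with Corin and 3200 to 3440 with both. These myeloid sums rest on few genes. MPO alone was at 1760 to 3900 CPM over the SKNO-1 libraries, and LYZ at 216 to 2770 CPM over those of U-937. In U-937 ITGAM ranged from 4.58 to 381 CPM, while MPO and CD14 reached at most 0.469 and 0.237 CPM. The part of all these markers in the values of LRRC32 and the other genes was not tested.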

How the data were processed

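Total RNA of 16 libraries was analysed from the authors' deposited tables of estimated counts per gene, made with STAR and RSEM on hg38 per the submitters' processing notes; versions, the annotation release and the use of strand are not given in the sources used here. The authors' deposited TPM and FPKM served for levels between genes. The authors' deposited comparison tables hold log2 fold changes and adjusted p-values, credited to DESeq2 in the submitters' processing notes; no result rests on them. RSEM shares reads among similar genes, so 20.4% of positive values were not whole; they were rounded. The 10 genes and the lists were chosen with earlier results of these data known.

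Genes passing filterByExpr (17479 in SKNO-1, 17717 in U-937, 19872 together) were scaled by TMM and fitted per line, or over all 16 libraries for differences between lines, with edgeR 4.0.16 (R 4.3.3), robust quasi-likelihood F test and Benjamini-Hochberg adjustment over all genes; calls have an adjusted p under 0.05. The SE was obtained as log2 fold change over the square root of F. The procedure was tested on simulated data. A departure from additivity is the combined effect minus the sum of the single effects. List genes are named where they are called, reach a mean of 1 CPM and have one of the 3 largest changes of their list, for ATRA plus Corin against DMSO; not every such gene is reported here. Alternatives were other scaling, no filter, DESeq2, a replicate block, removal of the GC trend, fewer groups and single libraries left out. The table held 0 spike-in rows, so RNA per cell was not measured.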

Additional observations from a re-analysis of the deposited data

Results flagged for a closer look

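In 11 cases the effect of an agent on a tested gene differed between U-937 and SKNO-1 by its own test in the fit of all 16 libraries (edgeR's quasi-likelihood test). For ATRA these were TGFBR2 (1.01), SMAD7 (0.82) and SMAD3 (0.46), each more positive in U-937. For Corin they were TGFBR1 (0.59) and SMAD7 (-1.55). For both agents they were TGFBR2 (1.71), SMAD3 (0.39), NRROS (-0.60), SMAD7 (-0.70), TGFB1 (-0.85) and SKI (-1.09). Of these, 5 kept an adjusted p under 0.05 under every alternative run: TGFBR2 with ATRA (highest adjusted p = 0.000321) and with both (1.26e-07), SMAD7 with Corin (0.00828), SKI with both (0.0468) and TGFB1 with both (0.0475).

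The remaining 6 were lost in some fits. SMAD3 with ATRA was lost in 12 of 22 (highest adjusted p = 0.172; 0.31 without SKNO-1 DMSO replicate 2), namely with library totals only and without any 1 library other than SKNO-1 DMSO replicate 1 and the U-937 Corin and combination libraries. SMAD7 with ATRA was lost in 17 of 22 (0.339; 0.45 without U-937 ATRA replicate 2), namely with RLE size factors, library totals only or the GC trend removed, and without any 1 library other than U-937 ATRA replicate 1 and U-937 combination replicate 1. TGFBR1 with Corin was lost in 5 of 22 (0.113), namely with library totals only and without either SKNO-1 Corin library, U-937 DMSO replicate 1 (0.45) or U-937 Corin replicate 2. NRROS with both was lost in 14 of 22 (0.249), namely with DESeq2 and without any 1 library other than SKNO-1 DMSO replicate 1, U-937 DMSO replicate 2 and U-937 combination replicate 1; it was -0.37 without SKNO-1 DMSO replicate 2 and -0.38 without U-937 DMSO replicate 1. SMAD3 with both was lost in 8 of 22 (0.326), namely with library totals only or the replicate block, and without SKNO-1 DMSO replicate 2 (0.30), either SKNO-1 combination library, either U-937 DMSO library or U-937 combination replicate 1. SMAD7 with both was lost in 12 of 22 (0.179), namely with RLE size factors, DESeq2 or the GC trend removed, and without any 1 of the SKNO-1 DMSO, Corin and combination libraries, U-937 DMSO replicate 2, U-937 Corin replicate 1 or U-937 combination replicate 1 (-0.50).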

How the results depend on the processing

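Of 68 called log2 fold changes of the tested genes, LRRC32 left out, 39 stayed called under every alternative and 29 were lost under at least 1; the results above name those libraries. Over all alternatives, 1425 values were recomputed: 1207 kept their direction and side of the threshold, 161 lost a call, 46 gained one and 11 changed sign, none of them called. The sign changes were SMAD7 from Corin to both in SKNO-1 (-0.15 with the GC trend removed; -0.01 to 0.16 with single libraries left out) and, with single libraries left out in U-937, FST with ATRA (-0.27 to 0.85), with Corin (-1.19 to 0.06) and with both (-0.35 to 0.80), TGFB1 with both (-0.24 to 0.15) and the additivity of SMAD7 (-0.11 to 0.47). The number of the 8 genes called in SKNO-1 for ATRA, 1 as reported, was 0 with library totals only, with the replicate block or with only the groups compared, 2 without the low-count filter or with DESeq2, and 3 with the GC trend removed. For Corin there, 5 as reported, it was 3 with RLE size factors, library totals only, DESeq2 or the replicate block, and 2 with only the groups compared. For additivity there, 0 as reported, it was 1 without the filter, with DESeq2 or with the GC trend removed. It was 4 for Corin in U-937 with only the groups compared, and 1 for the ATRA and for the Corin effect between lines with library totals only. Leaving out single libraries gave 0 to 5 for ATRA, 2 to 5 for Corin, 1 to 7 for ATRA added to Corin and 0 to 5 for additivity in SKNO-1; 3 to 6 for ATRA, 0 to 3 for Corin and 1 to 3 for additivity in U-937; and 1 to 3, 1 to 3 and 3 to 6 for the ATRA, Corin and combined effects between lines. The number of all genes called moved with single libraries left out as well. The cause of these shifts was not tested. Replicate numbers shared only a number: replicate differences of 2 groups correlated between -0.488 and 0.236 in SKNO-1 and between -0.447 and 0.418 in U-937. With 2 libraries per group and 4 residual degrees of freedom, small changes may be missed. LRRC32 in DMSO has 0 counts, and a floor of 3 counts over that group is 0.0413 CPM in SKNO-1 and 0.0489 CPM in U-937.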
